A study of Mus musculus with 12 samples.

Results

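Genes for potassium, sodium and calcium channels were compared between the rostral and the caudal end of the mouse neocortex at E13.5. Members were chosen by symbol alone, from the platform's probe-to-gene table, as every symbol that starts with Kcn, Cacna, Cacnb or Cacng or that is Scn followed by a digit. This rule gave 111 of the 21998 probes and 94 of the 15063 genes, namely 65 potassium channel genes on 73 probes, 9 sodium channel genes on 11 probes and 20 calcium channel genes on 27 probes. The symbols reach wider than channels opened by voltage. Of the 94 genes, 37 were classed as voltage-gated pore subunits, with the sodium-sensing relative Scn7a counted among them. Another 31 encode auxiliary or electrically silent subunits. A further 24 encode potassium pores that voltage alone does not open (inward rectifiers, leak channels and small- or intermediate-conductance channels opened by calcium), and 2 symbols name antisense RNAs (Kcnd3os and Kcnmb4os1).

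Tissue came from 2 strains with no mutation or treatment named in the labels, the outbred MF1 and the inbred C57 (C57Bl\6 in the design text), all at E13.5. Each strain gave 3 pools of rostral and caudal tissue, each from 3 embryos per the labels, while the design text states a lower minimum and describes collection within single litters. RNA of both ends of a pool was hybridised to the same array, once with rostral RNA in the dye Cy3 and once in Cy5, which gave 12 arrays of 6 pools. Every pool value is thus the log2 of rostral over caudal signal, where 1 unit is a doubling, and no level of a gene could be read. For the same reason the presence of neocortical markers in the tissue could not be checked, only their ratio. The labels do not state whether pools of the same strain were separate litters. A p-value here therefore sets a mean ratio against the spread among these pools, which may be partly technical.

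A voltage-gated channel is built around a pore that opens when the membrane depolarises. Sodium pores carry the upstroke of the action potential, potassium pores repolarise the cell and set its firing pattern, and calcium pores couple electrical activity to transmitter release, growth and transcription. In the embryonic cortex, progenitors rest on leak and inward rectifier potassium channels, and young neurons add voltage-gated sodium, potassium and calcium currents as they leave the ventricular zone. Auxiliary subunits bring pores to the membrane and tune their gating.

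Between 17998 and 20997 probes had a value on each array. No label names the numerator dye of the deposited ratios, so which end a positive value marks is likely but not known. It rests on genes outside the channel families such as Fgfbp3, which averaged 1.06 ± 0.11 (SD, n = 6 pools), and Nr2f1, a caudal area regulator, which averaged -1.14 ± 0.57. MF1 pool 3 stood apart: across all probes its ratios correlated at -0.18 and -0.21 (Spearman) with those of MF1 pools 1 and 2, which correlated at 0.25 with each other. Fgfbp3 and Nr2f1 nevertheless had the same sign in MF1 pool 3 as elsewhere. In C57 the dye-exchanged arrays of a pool ran against each other, with correlations across probes of -0.30, -0.16 and -0.13 after turning, against 0.12, 0.04 and 0.24 in MF1. Whether the dye labels of the C57 arrays are right was not tested, and a wrong label would change the C57 pool values. In C57 pools 1, 2 and 3 Fgfbp3 was 1.22, 1.04 and 1.01, and Nr2f1 was -1.89, -1.48 and -1.51. Channel probes disagreed more than other probes in C57. Their orientations differed by a median of 0.99 log2 units, against 0.67 for probes with other symbols, and 19.4% of their array values were missing, against 13.4%. In MF1 the same medians were 0.37 and 0.38. Each array held 1 strain, so strain and set of arrays cannot be told apart.

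Of the 94 genes, 68 had at least 2 pools per strain and could be tested, namely 45 potassium, 7 sodium and 16 calcium channel genes. Taken as a group the channel genes showed no shift along the axis: their median ratio over both strains was 0.0020, with 34 genes above and 34 below 0, beside a median of 0.0091 over the 14418 features tested. Their median distance from 0 was 0.15, the same as over all features. No channel gene passed Benjamini-Hochberg adjustment over all features (limma, smallest adjusted p = 0.464, for Scn10a), and 0% of all features did. In an alternative fit of the 12 arrays, which counts the arrays of a pool nearly as separate samples, 25 features passed and 0 of them were channel genes. At an unadjusted p under 0.05, 8 channel genes were called, 3 higher rostrally and 5 lower, which is 11.8% of those tested beside 8.98% of all features (4.34% higher and 4.64% lower). With arrays left as deposited, without centring, the median of all features moved to -0.18 and that of the channel genes to -0.19, and the 8 calls became 16, of which 1 was higher and 15 lower, while the share of all features called rose to 15%. Of the 8, Cacng4 (0.24) and Kcna3 (0.10) were then no longer called. With arrays centred and scaled to a common spread, the same 2 genes were lost and 1 gene was called higher and 5 lower. Leaving out MF1 pool 1 left 4 calls and leaving out MF1 pool 3 left 5. In bulk tissue, fewer cells of a type and less RNA per cell cannot be told apart.

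**Figure D1:**
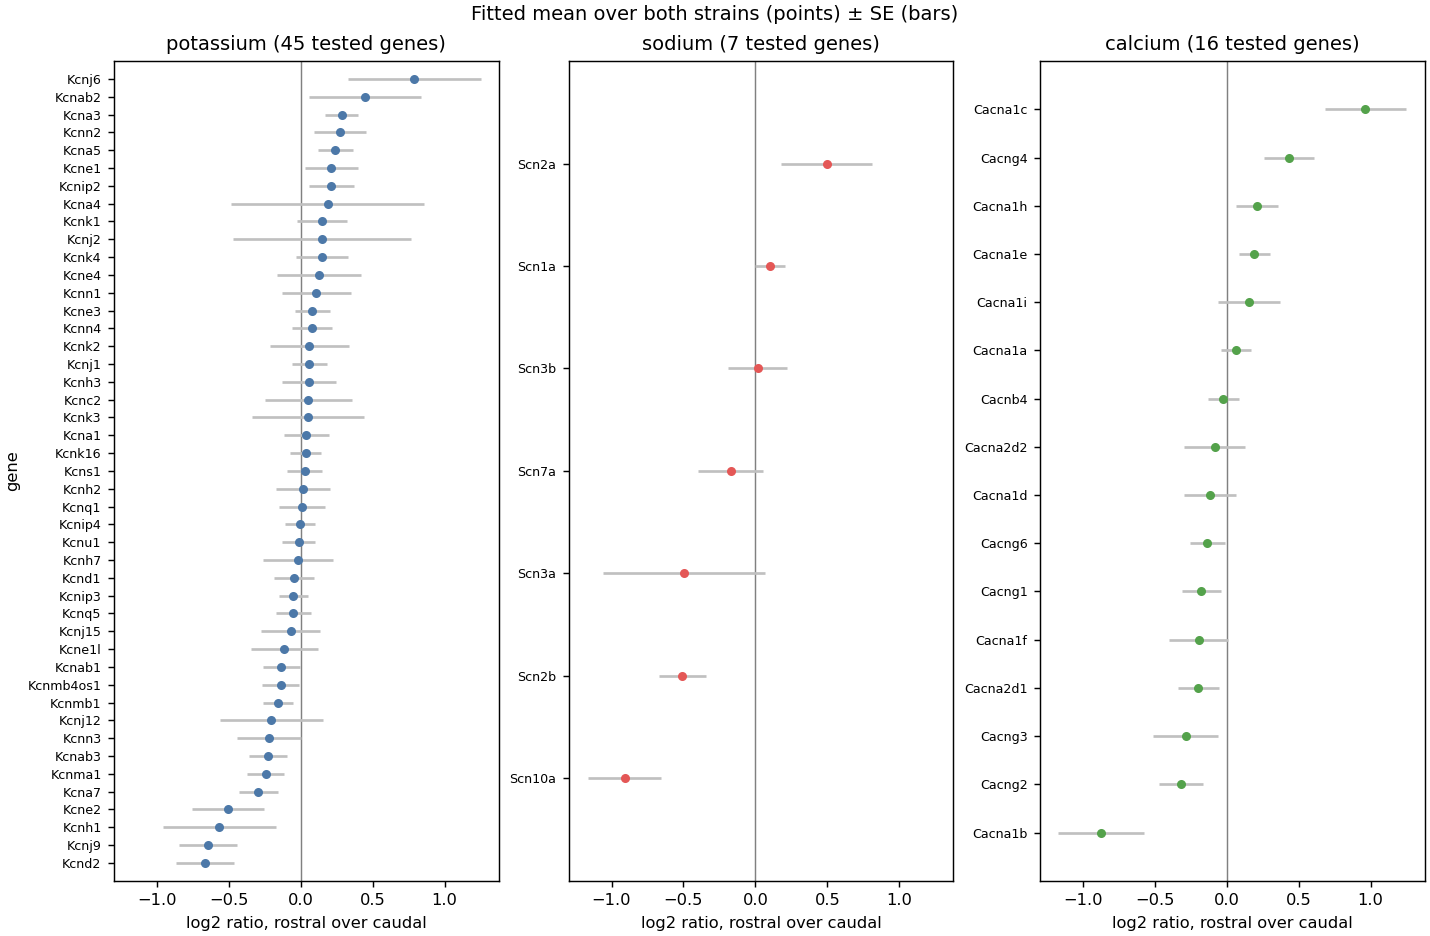
Fitted mean log2 ratio of rostral over caudal cortex over both strains for the 68 tested channel genes, 1 panel per ion, with bars of 1 SE. Most points lie near 0, and the estimates run from -0.91 for Scn10a to 0.96 for Cacna1c.

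The genes called were Scn10a, Kcnd2, Scn2b, Kcnj9 and Cacna1b, all lower rostrally, and Cacna1c, Cacng4 and Kcna3, all higher. Of these, Scn10a and Kcnd2 were past an unadjusted 0.05 whichever pool was left out. Their promoters are shown because these were the only channel genes called without exception in that check. The sequences are windows of 300 bases around the annotated start, mostly upstream of it, on the gene's own strand, and come from RefSeq (GRCm38.p6). Capitals mark CG dinucleotides, the sites of DNA methylation, of which the Kcnd2 window holds 26 and the Scn10a window 11. The windows lie at chr6:21215096-21215395 on the + strand for Kcnd2 and at chr9:119718983-119719282 on the - strand for Scn10a.
Kcnd2: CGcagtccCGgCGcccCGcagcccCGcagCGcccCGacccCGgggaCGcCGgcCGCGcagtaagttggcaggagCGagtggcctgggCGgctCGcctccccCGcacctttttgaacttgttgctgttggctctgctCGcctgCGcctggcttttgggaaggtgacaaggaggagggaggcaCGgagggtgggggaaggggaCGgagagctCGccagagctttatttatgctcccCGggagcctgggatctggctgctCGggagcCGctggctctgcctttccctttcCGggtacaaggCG
Scn10a: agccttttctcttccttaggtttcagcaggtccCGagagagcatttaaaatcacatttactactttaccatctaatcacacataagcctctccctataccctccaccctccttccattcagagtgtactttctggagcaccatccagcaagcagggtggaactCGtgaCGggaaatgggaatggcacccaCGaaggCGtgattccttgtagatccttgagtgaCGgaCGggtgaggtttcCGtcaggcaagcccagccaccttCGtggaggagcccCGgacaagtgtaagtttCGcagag
The 2 windows differ in composition, with 68.7% G and C for Kcnd2 and 51.7% for Scn10a. Promoters of 75 channel genes were found in the same source, 107 in all, with a median of 9 CG dinucleotides and a range of 1 to 63. The median over all 32851 promoters was 7.

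**Figure D2:**
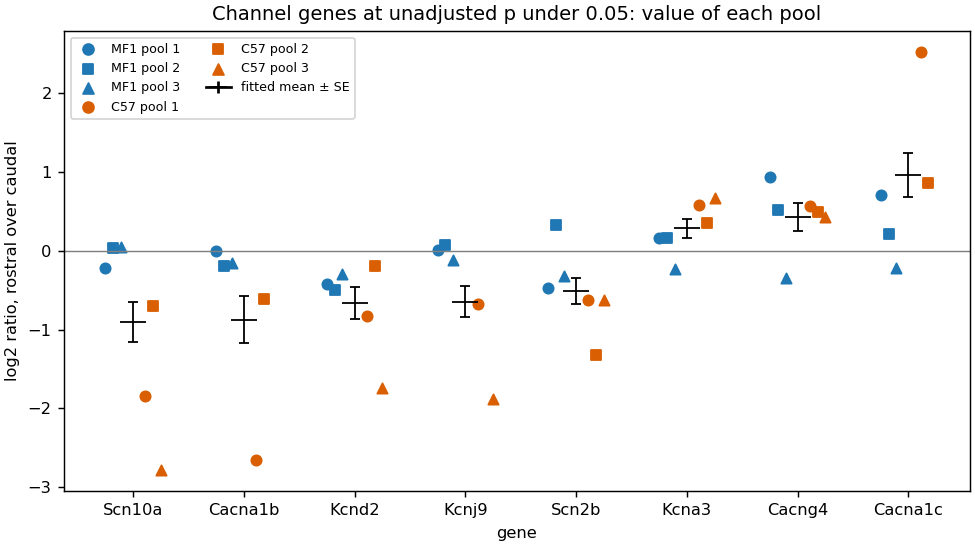
Log2 ratio of rostral over caudal cortex in each pool (points; blue for MF1, orange for C57) for the 8 channel genes at an unadjusted p under 0.05, with the fitted mean over both strains and its SE in black. The extreme values were in C57, from -2.78 for Scn10a to 2.52 for Cacna1c. For Cacng4, Kcna3 and Scn2b the C57 pools spread less than those of MF1, and for the other genes more.

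Sodium channel genes lay farther from 0 than the others, with a median distance of 0.49 log2 units, against 0.14 for potassium and 0.19 for calcium channel genes. Sodium channel genes were farthest in C57 (0.86, against 0.21 and 0.26) but not in MF1, where the distances were 0.13, 0.06 and 0.14. Their pore subunits carry the current and their beta subunits, single-pass membrane proteins, anchor and modulate it. Of 7 tested genes 2 were called, both lower rostrally (4.64% of all features were), and the median ratio was -0.17. Scn10a encodes the pore resistant to tetrodotoxin that is best known from pain-sensing neurons. Its ratios were -0.22, 0.04 and 0.04 in MF1 pools 1, 2 and 3 and -1.84, -0.70 and -2.78 in C57 pools 1, 2 and 3. The MF1 values lay around 0 and all C57 values below them, with no overlap. Here and for the genes below, the share of all features whose strains do not overlap was not counted. The fitted mean was -0.91 (SE 0.25), a 1.88-fold lower rostral signal, with an unadjusted p of 0.00944 and an adjusted p of 0.464 (limma). Without each pool in turn it ran from -1.18 to -0.66. With rostral RNA in Cy5 only it was -0.58 with an unadjusted p of 0.296.

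Scn2b, a beta subunit linked to the pore by a disulfide bond, gave -0.47, 0.33 and -0.32 in the MF1 pools and -0.63, -1.32 and -0.63 in those of C57. It was below 0 in 5 of 6 pools. Its fitted mean was -0.51 (SE 0.16), with an unadjusted p of 0.0175 (adjusted p = 0.484, limma). Leaving out MF1 pool 1 (-0.43), MF1 pool 3 (-0.47) or C57 pool 2 (-0.39) ended the call. The other beta subunit measured, Scn3b, ran both ways, with -0.47, -0.43 and -0.04 in MF1 and 0.16, 1.20 and -0.31 in C57.

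The central neuronal sodium pores did not pass. Scn2a, the pore of early axon initial segments, had -0.05, 0.06 and -0.14 in MF1 and 2.12 and -0.05 in C57 pools 1 and 3, with no value in C57 pool 2. Its mean of 0.49 (SE 0.32) therefore came from a single pool, and it was -0.05 without C57 pool 1. The arrays of that pool read -0.15 with rostral RNA in Cy3 and 4.38 in Cy5. The only array of C57 pool 2 with a value read -3.28. Scn3a, the pore that dominates in the embryonic brain, had -1.42 and 1.19 in MF1 pools 2 and 3 and -1.94 and 0.18 in C57 pools 1 and 3, so each strain held a strongly negative and a positive pool. Scn1a, a pore best known from inhibitory neurons after birth, was steady in MF1 at 0.31, 0.24 and 0.23 but gave 0.03, -0.27 and 0.06 in C57. The MF1 and C57 values of Scn1a did not overlap, and the strain difference of 0.31 (SE 0.21) had an adjusted p of 0.945 (limma). Scn7a, a sodium-sensing relative of the pores, had a mean of -0.17, and its 2 probes differed in sign at 0.20 and -0.29.

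Some sodium channel genes neighbour each other in RefSeq's gene order. Scn3a and Scn2a lie next to each other with means of -0.50 and 0.49, both with wide errors. Scn1a, Scn9a and Scn7a form another run, with MF1 means of 0.26, 0.33 and -0.13. Scn11a, next to Scn10a and likewise a pore of sensory neurons, could not be tested. It read 0.38, 0.04 and -0.19 in MF1 and -1.49 in C57 pool 3, the only C57 pool with a value on both arrays. The single arrays with a value in C57 pools 1 and 2 read 0.88 and 0.94, above 0.

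Calcium channels were represented by pore subunits of the L, P/Q, N, R and T types and by 3 families of partners. Of 16 tested genes 3 were called, 2 higher rostrally and 1 lower (8.98% of all features were called), with a median ratio of -0.10. Of the 16, 6 were above 0, beside 51.6% of all features. Cacna1c encodes the widely expressed L-type pore that links depolarisation to transcription in neurons. It gave 0.70, 0.21 and -0.22 in MF1 pools 1, 2 and 3 and 2.52 and 0.86 in C57 pools 1 and 2. All but MF1 pool 3 were above 0. C57 pool 3 had no pool value because the probe had no value on the array with rostral RNA in Cy5. Fitted over both strains it was 0.96 (SE 0.28), with an unadjusted p of 0.0151 (adjusted p = 0.483, limma). Without C57 pool 1 it was 0.55 and no longer called.

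Cacna1b encodes the N-type pore of presynaptic terminals. It was -0.01, -0.19 and -0.15 in MF1 and -2.66 and -0.61 in C57 pools 1 and 2, below 0 in 5 of 5 pools. The MF1 values were close to 0, and both C57 values lay below all of them. The fitted mean was -0.87 (SE 0.30), with an unadjusted p of 0.0285 (adjusted p = 0.511, limma). It was -0.90, -0.86 and -0.87 without MF1 pool 1, 2 or 3 and -0.36 without C57 pool 1, none of them called. Cacna1c and Cacna1b, a postsynaptic and a presynaptic calcium pore, thus leaned to opposite ends, each with its largest value in C57 pool 1.

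The remaining calcium pores were nearer to 0. Cacna1e, the R-type pore, was above 0 in 6 of 6 pools, at 0.35, 0.34 and 0.01 in MF1 and 0.08, 0.20 and 0.17 in C57. Its mean of 0.19 (SE 0.11) had an unadjusted p of 0.118 (adjusted p = 0.628, limma), and with rostral RNA in Cy3 only it was -0.02. Cacna1a, the P/Q-type pore, lay at 0.06 (SE 0.10). Both tested T-type pores, which open near the resting potential, had means above 0. Cacna1h had 0.61, 0.23 and 0.02 in MF1 and -0.07, -0.11 and 0.60 in C57, and its 2 probes averaged -0.02 and 0.44. Cacna1i had 0.27 and 0.83 in MF1 pools 1 and 2 but -0.41, 0.42 and -0.73 in C57. The third T-type pore, Cacna1g, had no C57 pool and read -0.08, -0.04 and -0.65 in MF1. The L-type pores Cacna1d (-0.12, SE 0.18) and Cacna1f (-0.19, SE 0.21) lay below 0 without being called.

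Of the calcium channel partners, Cacng4 was called. It belongs to the gamma subunits, several of which also escort AMPA-type glutamate receptors to the membrane. Its ratios were 0.94, 0.52 and -0.34 in MF1 and 0.57, 0.49 and 0.43 in C57. It was above 0 in all pools but MF1 pool 3, and the C57 pool values were close together. On the C57 arrays Cacng4 read 0.11, -0.96 and -0.55 with rostral RNA in Cy3 and 1.03, 1.93 and 1.41 in Cy5. Its fitted mean was 0.43 (SE 0.18), with an unadjusted p of 0.0440 (adjusted p = 0.541, limma). It was 0.61 without MF1 pool 3. The call was lost without any other pool: 0.29 and 0.40 without MF1 pools 1 and 2, and 0.41, 0.44 and 0.45 without C57 pools 1, 2 and 3. The other 4 gamma genes had means below 0, from -0.14 for Cacng6 to -0.32 for Cacng2, and Cacng1, the neighbour of Cacng4 in RefSeq's gene order, was at -0.18. The 2 probes of Cacng2 averaged -0.62 and 0.11. Cacna2d1, the alpha2delta subunit bound by gabapentin, had 0.22, -0.27 and -0.31 in MF1 and -0.45, 0.15 and -0.53 in C57. Cacnb4, a beta subunit that brings the pore to the membrane, stayed within 0.22 of 0 in every pool, although its 4 probes ranged from -0.42 to 0.08.

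Potassium channels made up most of the genes and had the smallest median distance from 0. Of 45 tested genes 3 were called (6.67%), 1 higher and 2 lower, which is below the 8.98% of all features. Their median was 0.03, with 25 genes above 0. Kcnd2 encodes the pore of the fast inactivating A-type current in dendrites. Its ratios were -0.42, -0.50 and -0.30 in MF1 and -0.83, -0.19 and -1.75 in C57. It was the only channel gene with 6 pools that was below 0 in all of them and also called, and the strains overlapped. Over every pool measured, 3.05% of all features were below 0, 3.32% above 0, and 6.37% either of these, beside 4 of 68 channel genes (Kcnd2, Cacna1b, Kcnab3 and Cacna1e). The fitted mean was -0.66 (SE 0.20), a 1.58-fold lower rostral signal, with an unadjusted p of 0.0137 (adjusted p = 0.482, limma). Without each pool in turn it ran from -0.85 to -0.46. The dye orientations did not share this value: with rostral RNA in Cy5 only it was -1.29, and in Cy3 only it was -0.03 with an unadjusted p of 0.852.

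The partners of this A-type pore were not called. Kcnip2, a calcium-binding KChIP subunit of these pores, had -0.03, -0.07 and 0.11 in MF1 and 1.04, 0.20 and 0.01 in C57. Kcnip3 and Kcnip4 lay at -0.05 and -0.0047, both with an SE of 0.10. Kcnd1, the sister pore, was at -0.05 (SE 0.14). The third sister, Kcnd3, had no C57 pool and gave -0.80, 0.02 and -0.10 in MF1.

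Among the Kv1 delayed rectifiers, which set spike threshold and width along axons, 4 of 5 tested genes had means above 0. Kcna3 was 0.16, 0.17 and -0.23 in MF1 and 0.58, 0.36 and 0.68 in C57, again above 0 in all pools but MF1 pool 3, with every C57 value above every MF1 value. Its fitted mean was 0.28 (SE 0.12), with an unadjusted p of 0.0447 (adjusted p = 0.543, limma). The call was lost at 0.25 without MF1 pool 1, MF1 pool 2 or C57 pool 3, and at 0.27 without C57 pool 1. With rostral RNA in Cy3 only the sign turned, to -0.12. Kcna5 averaged 0.24 (SE 0.12) and Kcna7 -0.29 (SE 0.14) without being called. None of the cytoplasmic beta subunits of this family was called. Kcnab3 was below 0 in 6 of 6 pools, at -0.13, -0.04 and -0.71 in MF1 and -0.03, -0.09 and -0.36 in C57. Its orientations opposed each other in both strains, at 0.80 and -1.39 in MF1 and 0.21 and -0.53 in C57. Kcnab1 was -0.19, -0.34 and -0.39 in MF1 and -0.14 and 0.21 in C57.

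Of the inward rectifiers, which hold neurons and glia near the potassium equilibrium potential, Kcnj9 was called. It encodes a channel opened by G proteins. Its values were 0.00, 0.07 and -0.11 in MF1 and -0.68 and -1.88 in C57 pools 1 and 3. The strains did not overlap. The fitted mean was -0.64 (SE 0.20), with an unadjusted p of 0.0198 (adjusted p = 0.484, limma), and the call was lost without MF1 pool 3 (-0.62) or C57 pool 3 (-0.34). With rostral RNA in Cy3 only the sign turned, to 0.34. Kcnj6, which forms channels together with Kcnj9, was at -0.66, 2.65 and 3.05 in C57 and near 0 in MF1 at -0.17, 0.06 and -0.19. Both genes were thus below 0 in C57 pool 1 and on opposite sides in C57 pool 3. The values 2.65 and 3.05 each came from 1 probe, and not the same one. With rostral RNA in Cy3 and in Cy5, the arrays behind 2.65 read 3.32 and 1.97. Those behind 3.05 read 6.68 and -0.58, on opposite sides of 0. The 3 probes of Kcnj6 averaged 0.58, -0.30 and 0.23. Kcnj2, the classical strong rectifier, had 0.22 and 0.16 in MF1 pools 2 and 3 and -1.74 and 1.96 in C57 pools 2 and 3.

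The leak channels with a double pore domain set the resting potential. All 5 tested had means above 0, but small ones, from 0.03 for Kcnk16 to 0.15 for Kcnk1, and none was called; 51.6% of all features were above 0. Kcnk1 gave 0.25, 0.25 and 0.02 in MF1 and 0.85, -0.18 and -0.30 in C57. Kcnk2, a mechanosensitive leak channel, gave -0.16 and -0.28 in MF1 pools 2 and 3 and -0.34, 1.38 and -0.01 in C57.

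Channels opened by calcium were mixed. Kcnma1, the pore of the large-conductance BK channel, had -0.05, 0.44 and -0.21 in MF1 and -0.35, -0.70 and -0.57 in C57. All C57 values lay below all MF1 values, and the fitted mean was -0.24 (SE 0.13). Its 2 probes averaged -0.38 and -0.11. The BK beta subunit Kcnmb1 was at -0.16 (SE 0.11), and turned to 0.56 with rostral RNA in Cy3 only. The antisense RNA Kcnmb4os1 gave 0.45, 0.21 and -0.23 in MF1 and -0.44, -0.23 and -0.60 in C57. The small-conductance channels Kcnn1, Kcnn2 and Kcnn3 had means of 0.11, 0.27 and -0.22.

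In the remaining potassium families no gene was called. Kcnh1, the ether-a-go-go pore, had 0.09, 0.29 and -0.55 in MF1 and 0.25 and -2.39 in C57 pools 1 and 2. Its mean of -0.56 (SE 0.39) rested on C57 pool 2, without which it was 0.09. Kcne2, a single-pass subunit also abundant in choroid plexus, was 0.04, -0.22 and -0.21 in MF1 and -0.42, -0.17 and -2.06 in C57. Of the choroid plexus genes listed, 4 of 5 tested were below 0, with pool medians from -0.53 to -0.07; their part in the value of Kcne2 was not tested. Kcnq5, a pore of the M current that restrains repetitive firing, was at -0.05 (SE 0.12). Kcns1, an electrically silent subunit, was at 0.03 (SE 0.12), and Kcnc2, a fast delayed rectifier, at 0.05 (SE 0.30).

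**Figure D3:**
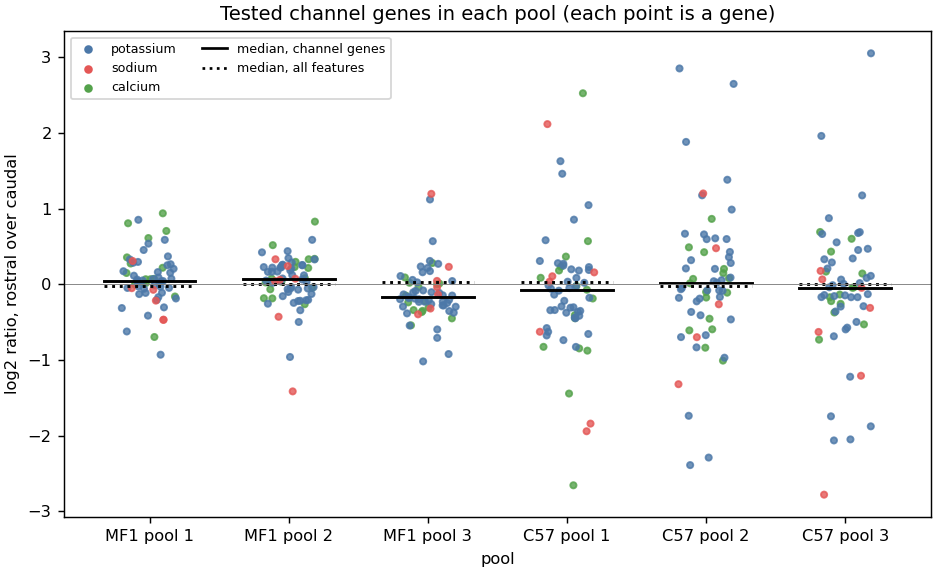
Log2 ratio of rostral over caudal cortex of each tested channel gene in each pool (points, coloured by ion), with the median of the channel genes (solid line) and of all features (dotted line). The channel median was lowest in MF1 pool 3, at -0.17, and the points spread more in the C57 pools.

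The pools differed in how the channel genes lay as a group. Their median was 0.05 in MF1 pool 1 and 0.07 in MF1 pool 2, with 39 of 64 and 43 of 68 genes above 0. In MF1 pool 3 it was -0.17, with 19 of 66 above 0. The C57 medians were -0.08, 0.01 and -0.05. Medians of all features stayed between -0.02 and 0.03. MF1 pool 3 was thus the pool in which channel genes leaned most to the caudal side, and it is also the pool whose profile ran against the other MF1 pools. With its sign turned, an alternative added after its profile was seen, 10 channel genes (14.7%) were called in place of 8, and 11% of all features in place of 8.98%.

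Strain by strain, channel genes deviated little in MF1 and more in C57. Their median distance from 0 was 0.11 in MF1, against 0.14 for all features, and 0.25 in C57, against 0.21. In MF1, 0 of 68 channel genes passed adjustment (limma, smallest adjusted p = 0.9995), and 0 were called at an unadjusted p under 0.05, where 4.36% of all features were. The MF1 gene with the smallest spread among those named was Scn1a, at 0.26 ± 0.04 (SD, n = 3 pools). The fit gave each gene a spread shared by both strains, so the SE of Scn1a in MF1 was 0.15. For Scn10a in C57 the SD was 1.04 over 3 pools and the SE of the fit 0.36. The counts called in MF1 and in C57 therefore depend partly on this shared spread, and a fit of each strain alone was not run. In C57, 0 passed adjustment (limma, smallest adjusted p = 0.241, for Scn10a) and 12 were called unadjusted, which is 17.6% against 9.71% of all features (4.23% higher and 5.48% lower). Of these, 8 were lower rostrally (Scn10a, Kcnj9, Scn2b, Cacna1b, Kcnd2, Kcnma1, Kcna7 and Kcne2) and 4 higher (Cacna1c, Kcna3, Kcnj6 and Kcna5). Without centring 12 were lower and 2 higher. Without C57 pool 3, 13 were called, of which 4 were among the 12.

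The difference between strains was tested directly. No channel gene passed adjustment (limma, smallest adjusted p = 0.715, for Scn10a), and 4 of 68 were called unadjusted (5.88%), 3 with the higher ratio in MF1 and 1 in C57, beside 6.1% of all features (3.61% and 2.49%). As MF1 minus C57 the differences were 1.73 (SE 0.51) for Scn10a, 1.27 (SE 0.40) for Kcnj9, 1.52 (SE 0.60) for Cacna1b and -1.46 (SE 0.56) for Cacna1c, with MF1 means between -0.12 and 0.23. With arrays scaled to a common spread 1 of 68 was called. The number ran from 1 without MF1 pool 2 to 12 without C57 pool 3, and was 2 without MF1 pool 1 and 8 without C57 pool 2. None of the 68 tested channel genes had all MF1 pools on the side of 0 opposite to all C57 pools, as 3.24% of all features did. Among the untested genes Kcnj3 did, with -0.28, -0.35 and -0.09 in MF1 and 0.85 in its only C57 pool. Strains whose values merely did not overlap were not counted over all features, so single genes of that kind have no background.

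**Figure D4:**
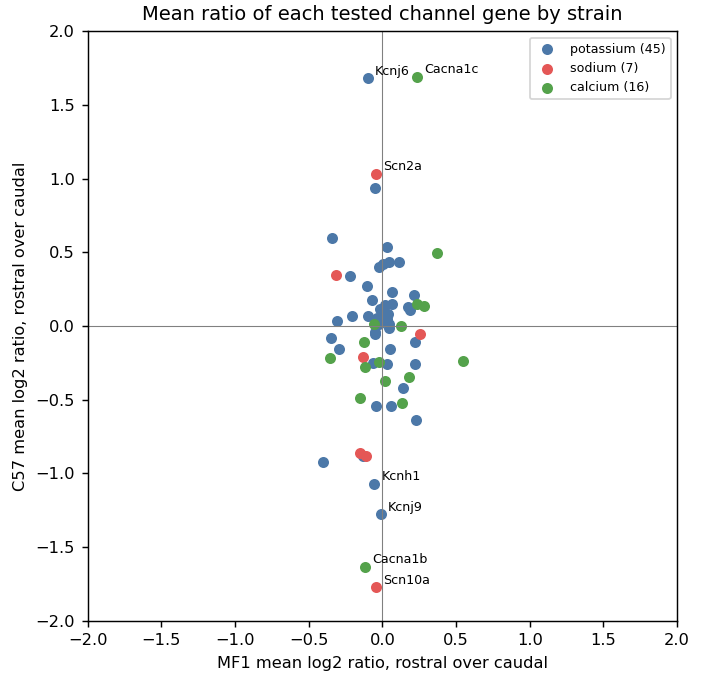
Mean log2 ratio of each tested channel gene in MF1 (horizontal axis) and in C57 (vertical axis), coloured by ion. Points spread along the C57 axis, where Scn10a lies at -1.77 and Cacna1c at 1.69, while the same genes lie at -0.04 and 0.23 in MF1.

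The dye orientations show how far single C57 values can be taken. Averaged over the C57 pools, Scn10a was -2.20 with rostral RNA in Cy3 and -1.35 in Cy5, and Scn2b was -1.33 and -0.39. Cacna1b was -1.86 and -0.73, and Cacna1c was 1.28 and 2.35. For these 4 called genes both orientations had the same sign in the C57 average, although Scn10a in C57 pool 2 alone was -1.95 and 0.55. For the other 4 they did not: Kcnd2 was 0.10 and -1.95, Kcnj9 0.57 and -2.36, Kcna3 -0.33 and 1.40, and Cacng4 -0.46 and 1.46. In MF1, Kcnd2 was below 0 in both orientations, at -0.17 and -0.64. Cacna1c (0.28 and 0.19) and Cacng4 (0.57 and 0.17) were above 0 in both. The MF1 orientations differed in sign for Scn10a (-0.28 and 0.19), Scn2b (-0.38 and 0.07) and Cacna1b (-0.30 and 0.07). They also differed for Kcna3 (0.09 and -0.02) and Kcnj9 (0.11 and -0.13). Over both strains Cacna1c was called in either orientation alone (1.27 in Cy5 and 0.78 in Cy3). With rostral RNA in Cy5 only, Scn10a, Scn2b (-0.16) and Cacna1b (-0.33) were not called. In Cy3 only, Kcnd2, Kcnj9, Kcna3, Cacng4 (0.05) and Cacna1b (-1.08) were not. Over all channel probes and C57 pools the orientations had the same sign in 41.7% of cases, against 44.7% for probes with other symbols. In MF1 the shares were 47.0% and 57%. With rostral RNA in Cy3 only, Scn10a passed adjustment in C57 (limma, adjusted p = 0.0359), as 188 features did. With rostral RNA in Cy5 only, 0 channel genes passed among 118 features that did.

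**Figure D5:**
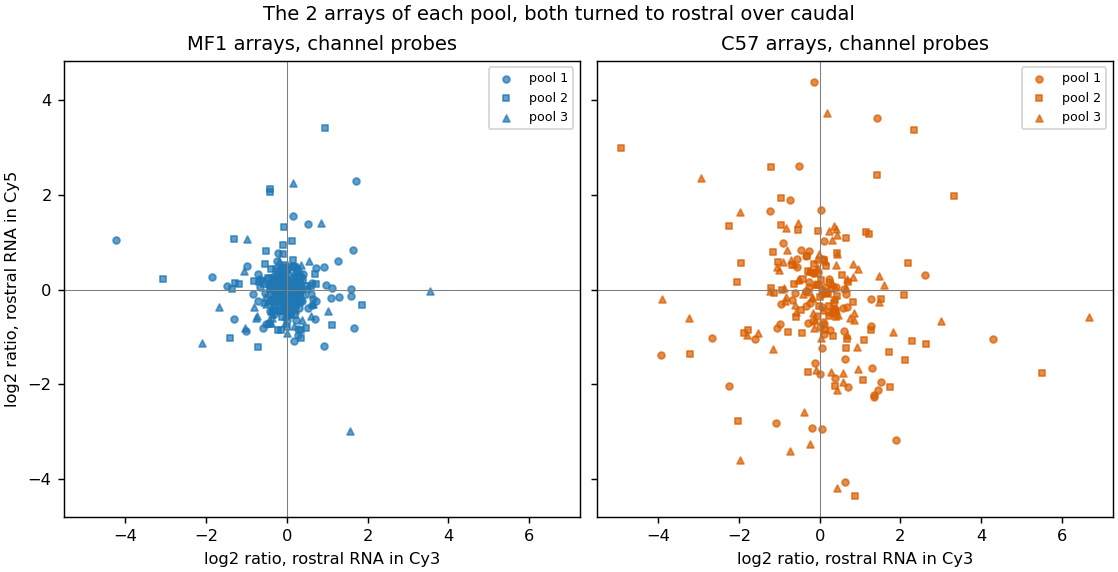
Log2 ratios of channel probes on the array with rostral RNA in Cy3 (horizontal axis) against the array of the same pool with rostral RNA in Cy5 (vertical axis), both turned to rostral over caudal, for MF1 (left) and C57 (right). Orientations had the same sign in 47.0% of MF1 cases and 41.7% of C57 cases, and the C57 cloud is wider.

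Of the channel genes, 26 could not be tested, and 25 of them had fewer than 2 C57 pools with both arrays. They were 20 potassium, 2 sodium and 4 calcium channel genes. The largest ratios among them belonged to Kcnc1, the fast delayed rectifier of rapidly firing neurons. It read 2.0 and 2.2 in MF1 pools 1 and 2, from 4 arrays that were all above 0, between 0.93 and 3.42. The 2 C57 arrays with a value, of different pools, read -2.16 and -1.64, so the strains stood on opposite sides, and this difference was not tested. Kcnv1, a silent subunit, read -1.59, -0.57 and 0.28 in MF1. Kcnk10, a leak channel, read -0.35 and 1.75 in MF1 pools 1 and 3. Kcnk7, Kcnip1 and Kcnmb2 each had a single C57 pool, at -2.14, -1.92 and -1.55, against MF1 values between -0.44 and 0.15. Single C57 arrays did not all go the same way. For Kcnip1 those of pools 1 and 2 read 5.09 and -0.09, and the value -1.92 averaged -3.24 and -0.60. For Kcnmb2 those of pools 2 and 3 read -0.38 and 1.07, and the value -1.55 averaged -0.18 and -2.92. The other untested genes stayed within 1.61 of 0 in every pool they had, and Kcnh5 had no pool value. Sodium, potassium and calcium channel genes that the platform table does not name were not analysed here.

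Genes that work with these channels showed no common shift either. The list held scaffolds, fibroblast growth factor homologues, release machinery and related channels, with Snap25 and Abcc9 also in a marker list. Of 48 genes listed 24 were tested, 11 above and 13 below 0, with a median of -0.05, and 2 were called unadjusted (8.98% of all features were), both lower rostrally. Fgf11, an intracellular relative of fibroblast growth factors, was below 0 in 6 of 6 pools and averaged -0.62 ± 0.45 (SD, n = 6). Stx1a, a syntaxin that binds presynaptic calcium channels, averaged -0.37 ± 0.52. Akap9, a kinase anchor for KCNQ1-type channels, averaged -0.31 ± 0.27 with 6 of 6 pools below 0. Unc80, a subunit of the sodium leak channel complex, averaged 0.32 ± 0.37 with 6 of 6 above 0. None of these passed adjustment (limma, adjusted p between 0.481 and 0.597).

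Markers of the cells that could carry the channels were set beside them. The 22 tested genes of postmitotic neurons, where most voltage-gated channels are made, had a median of 0.0069, with 12 above and 10 below 0 and pool medians from -0.22 to 0.07. In MF1 pool 3, where channel genes were lowest, the neuronal median was 0.06. Radial glia genes had 11 of 14 above 0 and a median of 0.12, with pool medians from -0.09 to 0.30. Intermediate progenitor genes had 7 of 10 above 0 and a median of 0.07, with pool medians from 0.06 to 0.23. Of all features 51.6% were above 0. Cajal-Retzius genes had 3 of 5 below 0 and a median of -0.27, with pool medians from -0.54 to 0.26. The medians of the lists for ventral telencephalon, diencephalon, blood vessels, meninges, microglia and red blood cells lay between -0.07 and -0.01. No gene of these lists passed adjustment (limma). The part of cell makeup in any channel ratio was not tested.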

How the data were processed

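RNA of rostral and caudal neocortex was compared on 2-colour arrays. The deposited values were log2 ratios between the dyes, as read from the values themselves: signed, around 0, with a ceiling of 16.61. The labels and the file state no image analysis, background correction, normalization, numerator dye or genome build of the probes. The number of arrays limits the precision, and signal over background is unknown because no intensities were used.

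The 701 values at the ceiling (4 in channel probes) were treated as missing and each array was centred on its median. Arrays with rostral RNA in Cy3 were turned, on the assumption of Cy5 over Cy3, and both arrays of a pool were averaged, as were probes of the same gene. The Entrez identifiers of 111 of 111 channel probes were found in RefSeq, and 0 symbols differed. A feature needed 2 pools per strain. For the 14418 features left, a mean per strain was estimated by limma's lmFit and eBayes (limma 3.58.1, R 4.3.3), with Benjamini-Hochberg adjustment at 0.05. Both strains shared the estimate of each feature's spread. A simulation of the fit of both strains on 14418 features recovered 2%, 54%, 80% and 96% of 50 features each at log2 changes of 0.5, 1, 2 and 4. Its pool values were independent normal draws with each feature's own SD, and all sizes of change were added in the same run. These shares therefore do not measure recovery in the data, where Fgfbp3, at 1.06 ± 0.11 (SD, n = 6 pools), had an adjusted p of 0.147 (limma).

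Members and lists were chosen with earlier results of these data known. Genes named were those of the same sign in every pool with an unadjusted p under 0.05, the gene of smallest p per subfamily, the 3 per side of smallest p in MF1, in C57 and between strains, and a set of well-known channels whatever their values; other channel genes named were chosen after their values were seen. Pool numbers are shared by the strains but do not pair them: deviations of same-numbered pools correlated at -0.11, 0.05 and 0.0021. The alternatives were other centring and scaling, ceiling values kept, a fit of 12 arrays, single dye orientations, other filters, separate probes, the replicate block, each pool left out, and MF1 pool 3 turned.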

Additional observations from a re-analysis of the deposited data

How the results depend on the processing

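No channel gene passed adjustment over both strains, in MF1 or for the strain difference under any of the alternatives run. In C57, Scn10a passed with rostral RNA in Cy3 only. Among all features, the fit of the 12 arrays passed 25 over both strains, 3 in MF1 and 11 in C57. Requiring all 6 pools passed 5 over both strains. In C57, 118 features passed with rostral RNA in Cy5 only and 188 in Cy3 only. Leaving out each pool in turn passed 0 features in every comparison. The count of channel genes at an unadjusted p under 0.05 over both strains was 8 of 68 (11.8%, beside 8.98% of all features). It was 16 of 68 without centring (23.5% beside 15%), 19 of 79 with rostral RNA in Cy5 only (24.1% beside 15.1%) and 5 of 48 with all 6 pools required (10.4% beside 9.01%), and ran from 4 to 12 over the pools left out. In MF1 it was 0, and became 2 without centring, 1 with arrays scaled, 1 of 93 with 1 pool per strain allowed, 3 with MF1 pool 3 turned, and 0 to 1 over the pools left out. In C57 it was 12 of 68 (17.6% beside 9.71%), and became 8 with arrays scaled (11.8% beside 6.05%), 22 of 79 with rostral RNA in Cy5 only (27.8% beside 20.2%) and 20 of 78 in Cy3 only (25.6% beside 20.5%); it ran from 9 to 13 over the pools left out. For the strain difference it was 4, and became 1 with arrays scaled, 13 of 79 with Cy5 only, 12 of 78 with Cy3 only, 2 of 48 with all 6 pools, 7 of 93 with 1 pool per strain, 9 with MF1 pool 3 turned, and 1 to 12 over the pools left out. With the pool number as a replicate block, 6 channel genes were called over both strains, all among the 8, and 0 features passed; no adjusted call changed.

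Of the 482 values that the named genes took under alternatives, 50 changed sign, over 22 of 31 genes. Without centring these were Cacna1i (-0.065), Kcnc2 (-0.14), Kcnj2 (-0.083), Kcnk1 (-0.038), Kcnk2 (-0.13), Kcns1 (-0.16) and Scn1a (-0.087). With ceiling values kept they were Cacnb4 (0.31) and Kcnj2 (-1.22), and in the fit of 12 arrays Kcnj2 (-0.031). With Cy5 only they were Kcnc2 (-0.84), Kcnj2 (-0.57), Kcnk2 (-0.094), Kcnma1 (0.026) and Kcnq5 (0.12). With Cy3 only they were Cacna1e (-0.022), Cacna1i (-0.0020), Kcna3 (-0.12), Kcnab1 (0.36), Kcnab3 (0.50), Kcne2 (0.046), Kcnip2 (-0.36), Kcnj9 (0.34), Kcnk1 (-0.20), Kcnmb1 (0.56), Kcnmb4os1 (0.36), Scn1a (-0.12) and Scn2a (-0.76). With 1 pool per strain they were Kcnab1 (0.0080), Kcnj2 (-0.33), Scn2a (-0.22) and Scn3a (0.056). Under the replicate block Kcnk2 turned (-0.11), and with MF1 pool 3 turned Kcnab3 (0.011) and Kcns1 (-0.062). Leaving out some pool turned 11 of them, whose values over the pools left out ran from -0.010 to 0.29 (Cacna1i), -0.065 to 0.036 (Cacnb4), -0.35 to 0.46 (Kcnc2), -1.22 to 0.094 (Kcnh1), -0.78 to 1.07 (Kcnj2), -0.031 to 0.26 (Kcnk1), -0.20 to 0.23 (Kcnk2), -0.10 to 0.026 (Kcnq5), -0.039 to 0.091 (Kcns1), -0.046 to 1.04 (Scn2a) and -1.15 to 0.16 (Scn3a). The cause was not tested. The planned fit with a variance trend was not run, since it takes average intensities, which were not used here. Dye disagreement and missing C57 spots limit what the C57 values show.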
